A study of Mus musculus with 9 samples.

Results

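The 31 genes described here encode the machinery that folds proteins in the endoplasmic reticulum (ER) and removes those that fail to fold. They were taken as a named set: 9 ER chaperones and their regulators, 6 lectin chaperones and disulfide isomerases, 4 stress sensors and transcription factors, 3 genes of the translocon, and 9 genes of ER-associated degradation. All 31 were measured, among 18194 genes in all. Each gene was read from the probe set with the highest mean over the 9 arrays. Levels are log2 intensities, a difference is the first group minus the second on that scale, and a gene was called higher or lower at a limma adjusted p under 0.05.

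The arrays compared mouse leukemias with and without Af10, the product of Mllt10, a cofactor of the histone methyltransferase DOT1L. In the Af10 deleted group, MLL-AF9 leukemia cells homozygous for floxed Af10 carried a Cre-expressing tdTomato vector (MIT). In the Af10 floxed group, the same kind of cells carried MIT without Cre. Cells of both groups were sorted, grown in secondary recipient mice and sorted again for tdTomato after harvest. The third group was made of primary leukemias transduced with Hoxa9 and Meis1, whose cells were neither sorted nor treated before RNA preparation. The labels give the strain background C57/BL6 X 129 and fresh bone marrow cells for every sample, 3 arrays per group. Whether the 3 arrays of a group came from different mice or different primary leukemias is not stated, so the p-values reflect only how these samples vary, and that variation may be technical.

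Secreted and membrane proteins enter the ER through the Sec61 channel and are folded there by the chaperone BiP, by lectin chaperones that bind sugar chains, and by enzymes that form and reshuffle disulfide bonds. Proteins that stay misfolded are trimmed of mannose, pulled back to the cytosol and ubiquitinated. When unfolded proteins accumulate, the sensors Ire1, Atf6 and Perk set off the unfolded protein response: Ire1 splices the Xbp1 mRNA, and Xbp1 and cleaved Atf6 switch on chaperone and degradation genes. Myeloid progenitors fold large amounts of granule enzymes, and plasma cells are the blood cells best known for dependence on Xbp1.

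The targeted gene was lower in deleted leukemias. Mllt10 averaged 10.00 ± 0.16 in deleted and 10.95 ± 0.40 in floxed leukemias (SD, n = 3 each), a 1.93-fold difference (limma adjusted p = 0.0293), and all 4 of its probe sets were lower. Which exons are floxed is not given in the labels, and some probe sets may measure undeleted sequence. Arrays correlated at 0.980 to 0.990 within groups. Leukocyte and myeloid markers, among them Ptprc, Spi1 and Itgam, were above background in every group. The 9 probe sets of Y-linked genes, taken as a gauge of background, lay between 2.97 and 4.71, and the lowest value of any of the 31 genes was 7.09. Single arrays stood apart in the set. Deleted replicate 6 was the lowest of its group for 20 of the 31 genes, against 34.9% of all genes, and floxed replicate 4 was the lowest of its group for 15, against 26.9% of all genes. Floxed replicate 5 had the widest difference of the 3′ minus the 5′ Gapdh control probe set, a gauge of RNA integrity, at 1.03, against 0.44 to 0.81 on the other arrays. On the same measure for actin it did not stand apart, at -0.37, against -0.41 to -0.34 on the other arrays.

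**Figure D1:**
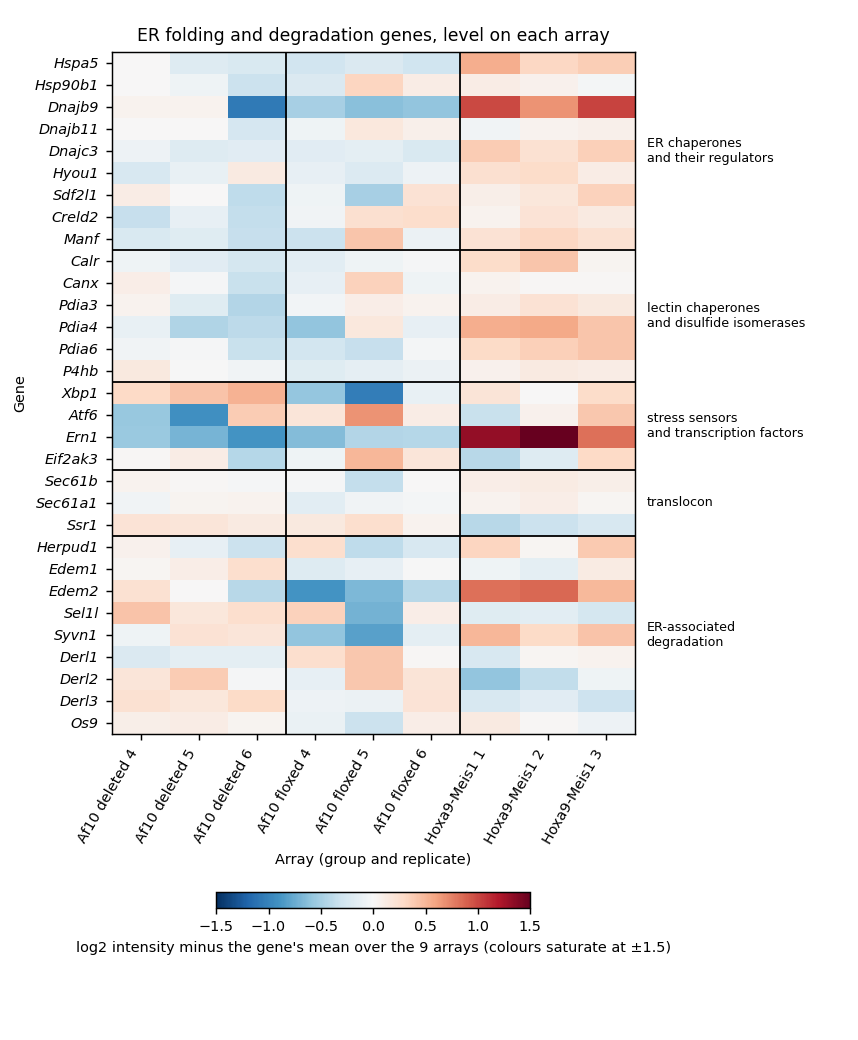
Each row is 1 of the 31 genes, grouped by role, and each column is 1 array. Colour gives the log2 intensity minus the gene's mean over the 9 arrays. Ern1, Dnajb9 and Edem2 stand out on the Hoxa9-Meis1 arrays, and Xbp1 is low on floxed replicates 4 and 5.

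In the comparison of deleted with floxed leukemias, Xbp1 was higher in deleted leukemias and no other gene of the set passed the test. These groups differ in Cre as well as in Af10, which cannot be told apart here. Xbp1 was 1 of 31 genes higher, where 3.22% of all genes were called higher. Of the 31 genes 0 were lower, where 3.63% of all genes were called lower and 6.85% in either direction. With limma, 5 genes had an unadjusted p under 0.05. The median difference of the 31 genes was 0.03, beside 0.06 over all genes. In these bulk samples, fewer cells of a type and less RNA per cell cannot be told apart.

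Xbp1, the transcription factor activated by Ire1, was at 11.32, 11.45 and 11.54 in deleted leukemias, against 10.43, 9.98 and 10.90 in floxed leukemias. Every deleted array lay above every floxed array, and the floxed arrays were the more scattered. The difference was 1.0 (SE 0.21, 2.0-fold, limma adjusted p = 0.0245). All 4 Xbp1 probe sets passed in the fit over all probe sets, with differences of 0.84 to 1.02. These 3′ probe sets measure total Xbp1 mRNA and do not separate its spliced form. The call was lost without deleted replicate 4, 5 or 6 or floxed replicate 4, with limma adjusted p of 0.0559, 0.0692, 0.0719 and 0.0566. The difference lay between 0.95 and 1.06 in these fits, and between 0.77 and 1.23 over all 6 fits that left out 1 array. The call was also lost at an unchanged difference without the Hoxa9-Meis1 arrays (limma adjusted p = 0.0629), and with a replicate block added to that fit (0.0712). The call was lost too, at a difference of 0.72, when deleted replicate 6 and floxed replicate 5 were both left out (0.11).

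The genes of the 3 sensors did not pass. Ern1, which encodes Ire1, was at 9.72, 9.58 and 9.38 in deleted and 9.62, 9.84 and 9.84 in floxed leukemias, with overlapping groups (difference -0.21, 95% confidence interval -0.62 to 0.21). Atf6 was at 10.19, 9.83 and 11.14 in deleted and 10.93, 11.43 and 10.86 in floxed leukemias. Deleted replicate 6 overlapped the floxed arrays, and the difference of -0.69 did not pass (limma adjusted p = 0.263). Without that array it was -1.07 and did not pass either (0.0571). All 3 Atf6 probe sets were lower, with differences of -0.94 to -0.69, and 1 of them, other than the one that represented the gene, was called (limma adjusted p = 0.0262 over all probe sets). Atf6 lies on chromosome 1, whose genes had a median 0.15 higher on deleted replicate 6 than on the other deleted arrays, after centring on all genes; the part of this in the Atf6 value was not tested. Eif2ak3, the gene of the sensor kinase Perk, was at 8.99, 9.08 and 8.55 in deleted and 8.91, 9.48 and 9.16 in floxed leukemias, again with overlap.

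The abundant chaperones differed little between deleted and floxed leukemias. Hspa5, the gene of BiP, was at 13.21, 13.01 and 12.98 in deleted and 12.92, 12.99 and 12.91 in floxed leukemias, and deleted replicate 6 fell inside the floxed range. The interval of the Hspa5 difference ran from -0.13 to 0.38. Hsp90b1, the ER member of the Hsp90 family, was at 13.20, 13.13 and 12.87 in deleted and 12.98, 13.51 and 13.30 in floxed leukemias, so the groups overlapped (interval -0.55 to 0.15). Creld2, an ER protein induced by stress, differed by -0.43 (limma adjusted p = 0.0826). It passed in 1 of 15 alternative settings, without floxed replicate 4 (limma adjusted p = 0.0485).

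Among the degradation genes, Syvn1, which encodes the ubiquitin ligase Hrd1, was at 9.57, 9.85 and 9.82 in deleted and 9.05, 8.83 and 9.48 in floxed leukemias. The groups did not overlap, but the difference of 0.63 did not pass (SE 0.17, limma adjusted p = 0.0639). It passed in 1 of 15 alternative settings, without floxed replicate 6 (limma adjusted p = 0.0169). Edem2, which takes part in mannose trimming of misfolded glycoproteins, was at 9.84, 9.62 and 9.20 in deleted and 8.72, 8.95 and 9.20 in floxed leukemias. Deleted replicate 6 met floxed replicate 6, and the difference was 0.60 (limma adjusted p = 0.111). Derl1, a membrane component of the retrotranslocation machinery, differed by -0.40 (limma adjusted p = 0.115). It passed in 1 of 15 alternative settings, the mean of its probe sets (limma adjusted p = 0.0488). The co-chaperone gene Dnajb9 differed by 0.25 (limma adjusted p = 0.636). It passed in 1 of 15 alternative settings, without deleted replicate 6, at a difference of 0.62 (limma adjusted p = 0.0449). In all, 4 of the 31 genes lay wholly above the floxed arrays, where 15.1% of all genes did, and 2 lay wholly below, where 10.7% of all genes did.

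Both MLL-AF9 groups were lower than Hoxa9-Meis1 leukemias for 6 genes: Hspa5, Dnajb9, Dnajc3, Pdia6, Ern1 and Edem2. Floxed leukemias had 7 of 31 genes lower (22.6%), where 3.31% of all genes were called lower, and 1 higher, where 5.58% of all genes were called higher and 8.89% in either direction. Deleted leukemias had 7 of 31 lower (22.6%), where 6.23% of all genes were called lower, and 2 higher, where 9.27% of all genes were called higher and 15.5% in either direction. The median difference of the set was -0.23 in the floxed comparison, beside -0.01 over all genes, and -0.28 in the deleted comparison, beside 0.05. The 2 comparisons share the Hoxa9-Meis1 arrays, so their values are not independent. The share of all genes called in both was not counted, so genes called in both are named without a background. The 2 kinds of leukemia also differ in oncogene, sorting, vector and transplant generation, which cannot be told apart here.

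**Figure D2:**
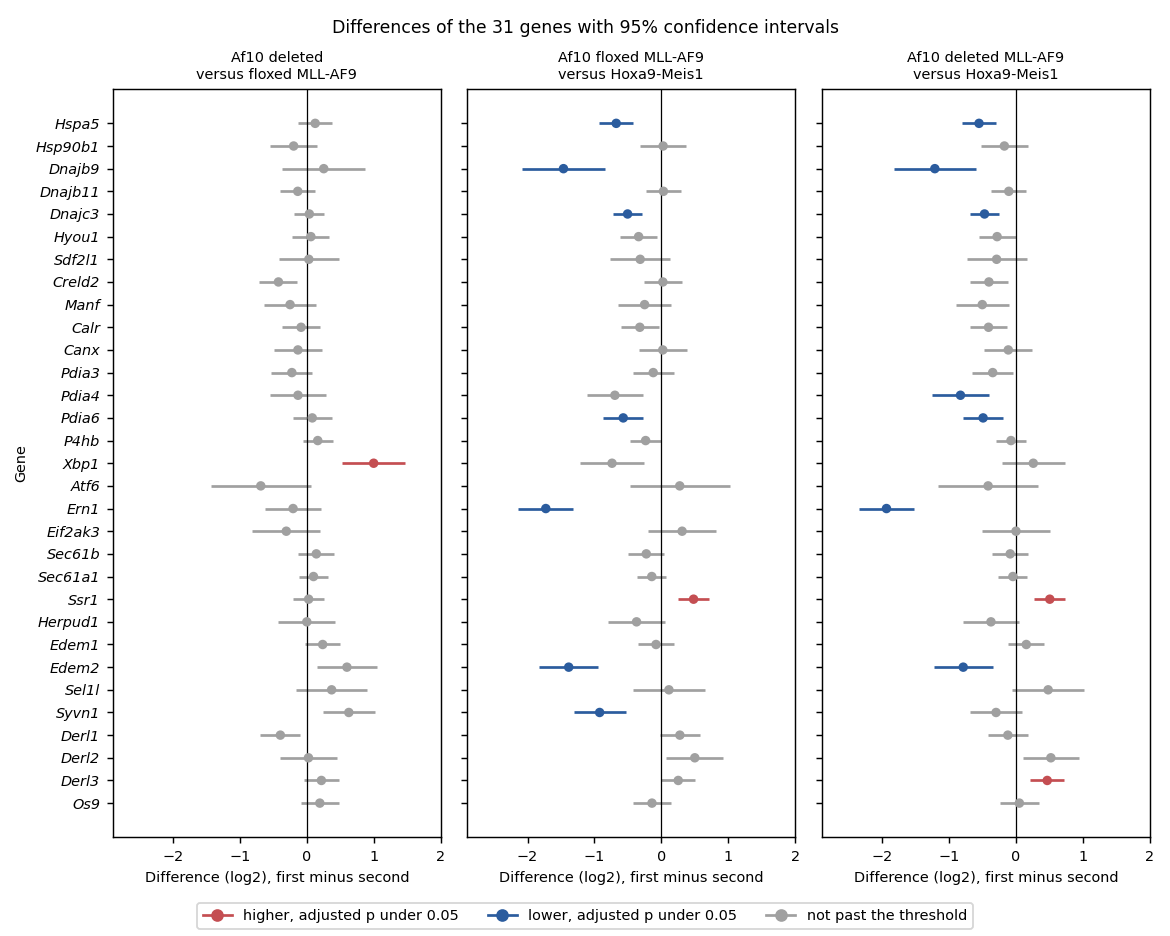
Points are the log2 differences of the 31 genes in the 3 comparisons, and bars are 95% confidence intervals of the fit. Red and blue mark genes past the threshold. Xbp1 is the gene past it in the left panel, while Ern1, Dnajb9 and Edem2 lie farthest to the left in the floxed versus Hoxa9-Meis1 panel.

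Of the sensors, Ern1 was the gene that differed most from Hoxa9-Meis1 leukemias. Its arrays, given above, lay between 9.38 and 9.84 in the MLL-AF9 groups, against 11.60, 11.79 and 11.09 in Hoxa9-Meis1 leukemias. The groups stood more than a full log2 unit apart. The difference was -1.93 for deleted leukemias (SE 0.18, 3.82-fold, limma adjusted p = 0.000236) and -1.73 for floxed leukemias (SE 0.18, 3.31-fold, limma adjusted p = 0.000918). In each comparison 4 of 5 Ern1 probe sets were called lower, and the call held under all 14 alternative settings. Xbp1, whose mRNA Ire1 splices, did not pass in deleted leukemias, where it was 0.26 above Hoxa9-Meis1 arrays at 11.21, 11.02 and 11.29 (limma adjusted p = 0.478). In floxed leukemias Xbp1 was 0.74 below them (limma adjusted p = 0.0612). It passed in 1 of 14 alternative settings, without floxed replicate 6 (limma adjusted p = 0.0156).

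Atf6 was at 10.42, 10.82 and 11.16 and Eif2ak3 at 8.56, 8.78 and 9.27 in Hoxa9-Meis1 leukemias. Both overlapped with each MLL-AF9 group. Atf6 differed by -0.42 in deleted and 0.27 in floxed leukemias, with limma adjusted p of 0.473 and 0.676, and 1 of its 3 probe sets was called lower in deleted leukemias (0.0305). Eif2ak3 differed by 0.00 in deleted leukemias, with an interval from -0.51 to 0.51, and by 0.31 in floxed leukemias (interval -0.20 to 0.82).

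The chaperone genes lower in both MLL-AF9 groups were Hspa5 and the co-chaperone genes Dnajb9 and Dnajc3. Hspa5 was at 13.75, 13.52 and 13.58 in Hoxa9-Meis1 leukemias, above all 6 MLL-AF9 arrays. Its difference was -0.55 for deleted (SE 0.11, 1.47-fold, limma adjusted p = 0.0117) and -0.68 for floxed leukemias (SE 0.11, 1.6-fold, limma adjusted p = 0.00792), and 2 of 3 probe sets passed in each. Dnajb9, a J-domain partner of BiP that also binds Ire1, was at 11.01, 11.01 and 9.89 in deleted and 10.46, 10.33 and 10.37 in floxed leukemias, against 11.95, 11.63 and 11.97 in Hoxa9-Meis1 leukemias. No MLL-AF9 array reached the Hoxa9-Meis1 range, and deleted replicate 6 lay more than a log2 unit below the other deleted arrays. The Dnajb9 difference was -1.21 for deleted (2.32-fold, limma adjusted p = 0.0178) and -1.46 for floxed leukemias (2.76-fold, limma adjusted p = 0.0128).

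Dnajc3, another J-domain partner of BiP and an inhibitor of eIF2α kinases, was at 11.52, 11.40 and 11.42 in deleted and 11.42, 11.44 and 11.36 in floxed leukemias, against 11.97, 11.82 and 11.95 in Hoxa9-Meis1 leukemias. The groups did not overlap. It was lower by the probe set that represented it, with differences of -0.47 in deleted (limma adjusted p = 0.0132) and -0.51 in floxed leukemias (0.015), while its other 4 probe sets did not pass, and the mean of all 5 did not pass either (0.395 and 0.212). Hsp90b1 was at 13.30, 13.25 and 13.16 in Hoxa9-Meis1 leukemias and overlapped with both MLL-AF9 groups, at -0.17 for deleted (interval -0.52 to 0.18) and 0.03 for floxed leukemias (interval -0.32 to 0.37). The remaining chaperone genes, Dnajb11, Hyou1, Sdf2l1, Creld2 and Manf, differed by -0.50 to -0.11 in deleted and -0.34 to 0.03 in floxed leukemias, and none passed. In deleted leukemias Creld2 and Manf each passed in 3 of 14 alternative settings. Hyou1 passed in 1 of 14 in each comparison, and 1 of its 3 probe sets was called lower in deleted leukemias (limma adjusted p = 0.0156).

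Several of these genes carry the ER stress response element (ERSE), which cleaved Atf6 and Xbp1 are known to use together with the factor NF-Y. Its consensus, CCAAT and CCACG with 9 bases of any kind between them, was searched on both strands in RefSeq promoters of GRCm38.p6, from 250 bases before to 50 after each gene's start. Of the 31 genes, 26 had a promoter there, and those not matched were Hyou1, Manf, Atf6, Sec61a1 and Derl1. The element stood in 9 of the 26 (34.6%) and in 37 of 27025 genes with a promoter (0.137%), so 9 of those 37 belong to the set. The matches are shown because they include the called genes Hspa5, Dnajc3, Pdia6, Syvn1 and Derl3. Each line is printed 5′ to 3′ on the strand that holds the motif, capitals mark the fixed letters of the element, and lower case letters are its spacer and 20 bases on either side.
Hspa5 (chr2:34772005-34772063, plus strand): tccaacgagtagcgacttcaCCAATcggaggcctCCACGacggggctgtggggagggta
Dnajc3 (chr14:118937807-118937865, plus strand): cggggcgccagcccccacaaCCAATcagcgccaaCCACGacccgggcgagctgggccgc
Pdia6 (chr12:17266471-17266529, plus strand): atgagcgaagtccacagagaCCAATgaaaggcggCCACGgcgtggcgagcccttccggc
Syvn1 (chr19:6046512-6046570, plus strand): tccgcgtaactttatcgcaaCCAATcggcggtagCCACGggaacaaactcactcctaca
Derl3 (chr10:75893222-75893280, minus strand): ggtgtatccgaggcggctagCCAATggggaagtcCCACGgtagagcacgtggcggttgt
Hsp90b1, nearer the start (chr10:86705513-86705571, plus strand): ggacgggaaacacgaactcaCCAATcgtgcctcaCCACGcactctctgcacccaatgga
Hsp90b1, farther from the start (chr10:86705618-86705676, minus strand): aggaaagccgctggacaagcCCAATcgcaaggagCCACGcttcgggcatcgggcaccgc

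The matched genes without a call are Hsp90b1, which holds the element on both strands, Calr, Canx and Creld2. Counted from the gene's start, the first base of the printed element lay 44 bases upstream in Syvn1, 65 in Hspa5, 98 in Pdia6, 105 in Dnajc3 and 138 in Derl3. Ern1, Dnajb9 and Edem2, the 3 genes with the largest differences between floxed and Hoxa9-Meis1 leukemias, had no match in this window, and neither had Pdia4, which exceeded Edem2 in the deleted comparison. Of the 9 genes with the element, 3 were lower and 1 higher in deleted leukemias than in Hoxa9-Meis1 leukemias, and of 17 promoters without it, 4 were lower and 1 higher. In floxed leukemias 4 of the 9 were lower, against 3 lower and 1 higher of the 17. The median differences were -0.40 with and -0.09 without the element in deleted leukemias, and -0.32 and -0.23 in floxed leukemias; these are descriptions of 2 small groups. The related ERSE-II, ATTGG and CCACG with 1 base of any kind between them, stood in 2 of 26 promoters, those of Dnajb11 and Herpud1 (7.69%, against 0.0444% of all genes). The Xbp1 site known as UPRE (TGACGTGG) stood in 0 of 26, against 0.714% of all genes. The Atf4 site searched, TGATGNAAN, stood in 1 of 26, that of Herpud1 (3.85%, against 4.5% of all genes).

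The upstream 250 bases of Hspa5 and Dnajb9 are printed whole because both genes fell in the 2 comparisons with Hoxa9-Meis1 leukemias while 1 promoter holds the element and the other does not. Capitals again mark the fixed letters of the ERSE.
Hspa5 (chr2:34771840-34772089, plus strand): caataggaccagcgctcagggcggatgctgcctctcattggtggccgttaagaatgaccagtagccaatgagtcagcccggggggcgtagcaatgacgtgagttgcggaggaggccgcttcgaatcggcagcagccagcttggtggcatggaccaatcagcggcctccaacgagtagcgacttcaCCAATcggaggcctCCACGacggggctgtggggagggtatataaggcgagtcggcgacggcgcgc
Dnajb9 (chr12:44210069-44210318, minus strand): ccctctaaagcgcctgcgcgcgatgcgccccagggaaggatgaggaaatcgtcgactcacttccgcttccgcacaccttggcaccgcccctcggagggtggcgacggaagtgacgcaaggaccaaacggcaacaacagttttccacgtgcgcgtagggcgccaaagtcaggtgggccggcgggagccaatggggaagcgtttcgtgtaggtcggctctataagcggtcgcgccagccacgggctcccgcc

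**Figure D3:**
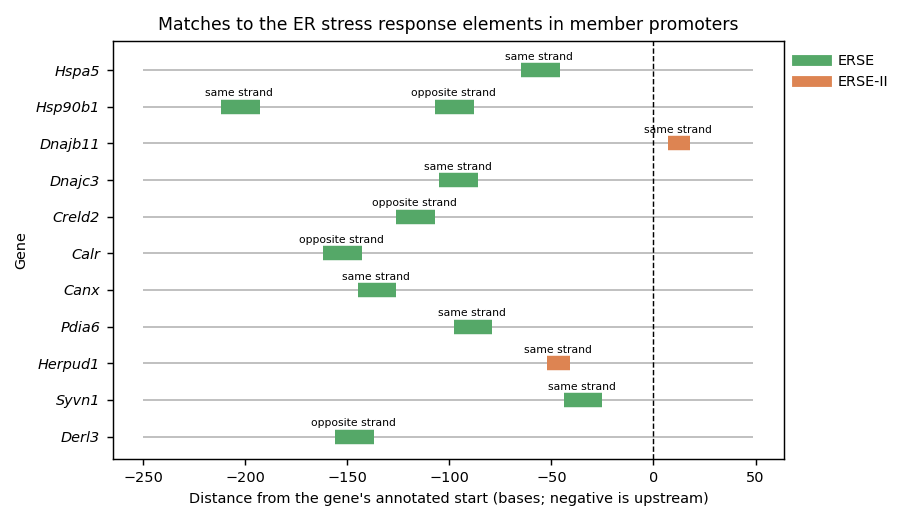
Each bar is a match to a response element in the promoter of 1 of the 31 genes, placed by its distance in bases from the annotated start. The ERSE matches lie upstream of the start in 9 genes, with the match of Syvn1 nearest to it.

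Disulfide isomerases were lower in MLL-AF9 than in Hoxa9-Meis1 leukemias by 2 genes. Pdia6 was at 10.64, 10.68 and 10.36 in deleted and 10.42, 10.35 and 10.67 in floxed leukemias, against 10.98, 11.06 and 11.12 in Hoxa9-Meis1 leukemias. Every Hoxa9-Meis1 array was above every MLL-AF9 array. The difference was -0.49 for deleted (limma adjusted p = 0.0352) and -0.57 for floxed leukemias (0.0281). The call was lost in 7 of 14 alternative settings for deleted and 6 of 14 for floxed leukemias.

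Pdia4 was at 10.08, 9.74 and 9.80 in deleted and 9.59, 10.35 and 10.06 in floxed leukemias, against 10.73, 10.76 and 10.61 in Hoxa9-Meis1 leukemias. It too was separate from both, with the floxed arrays the most spread. The difference was -0.83 for deleted leukemias (SE 0.19, 1.78-fold, limma adjusted p = 0.018), by 1 of 2 probe sets, and -0.70 for floxed leukemias (limma adjusted p = 0.052). Pdia4 passed in 10 of 14 alternative settings for deleted and 6 of 14 for floxed leukemias. The other isomerases Pdia3 and P4hb and the lectin chaperones Calr and Canx did not pass. Calr was closest, at -0.41 for deleted leukemias (limma adjusted p = 0.0571), and passed in 5 of 14 alternative settings. All 6 genes of this class and all 9 chaperone genes had a negative difference in deleted leukemias, as did 7676 of all 18194 genes, and Canx turned positive with the mean of its probe sets (0.17). In floxed leukemias 5 of the 6 and 6 of the 9 were negative, as were 9477 of all genes.

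**Figure D4:**
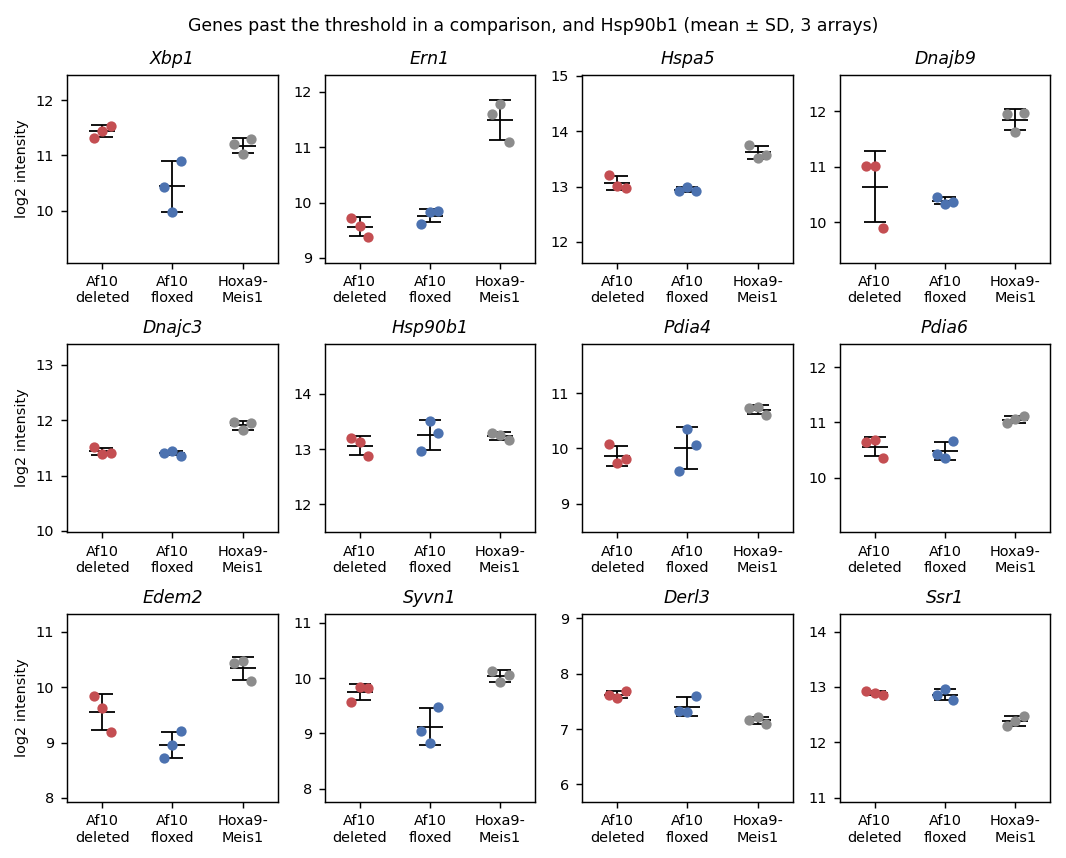
Points are single arrays, and bars are the mean and SD of 3 arrays, for the genes called in any comparison and Hsp90b1, with the y axis in log2 intensity over the same span in each panel. Ern1 shows the widest gap between MLL-AF9 and Hoxa9-Meis1 leukemias, Xbp1 is low in floxed leukemias, and Hsp90b1 overlaps in all groups.

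The degradation genes moved in both directions against Hoxa9-Meis1 leukemias. Edem2, whose MLL-AF9 values are given above, was at 10.44, 10.48 and 10.10 in Hoxa9-Meis1 leukemias, above every other array. Its difference was -0.79 for deleted (SE 0.20, 1.73-fold, limma adjusted p = 0.0271) and -1.39 for floxed leukemias (SE 0.20, 2.61-fold, limma adjusted p = 0.00379). Both Edem2 probe sets passed in the floxed comparison and 1 of 2 in the deleted comparison.

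Syvn1 was at 10.14, 9.93 and 10.06 in Hoxa9-Meis1 leukemias. Floxed leukemias lay clearly below, with a difference of -0.92 (SE 0.17, 1.90-fold, limma adjusted p = 0.0126) and both probe sets past the threshold. Deleted leukemias lay below without overlap but did not pass, at -0.30 (limma adjusted p = 0.304). Derl3, a derlin of secretory cells, was the dimmest of the 31 genes. It was at 7.62, 7.57 and 7.68 in deleted leukemias, against 7.16, 7.22 and 7.09 in Hoxa9-Meis1 leukemias, with every deleted array the higher. The difference was 0.47 (SE 0.11, 1.38-fold, limma adjusted p = 0.0249), and it did not pass without any 1 of the 6 arrays compared, at limma adjusted p of up to 0.0765. Floxed leukemias had Derl3 at 7.32, 7.30 and 7.60, and it did not pass (limma adjusted p = 0.221). Herpud1, Edem1, Sel1l, Derl1, Derl2 and Os9 passed in neither comparison. Sel1l, the adaptor of Hrd1, differed by 0.48 for deleted leukemias (limma adjusted p = 0.22). It passed in 3 of 14 alternative settings, among them the mean of its 5 probe sets (limma adjusted p = 0.0264).

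The translocon genes included the 1 gene higher in both MLL-AF9 groups. Ssr1, a subunit of the translocon-associated complex, was at 12.92, 12.89 and 12.85 in deleted and 12.86, 12.96 and 12.77 in floxed leukemias, against 12.29, 12.38 and 12.47 in Hoxa9-Meis1 leukemias. The MLL-AF9 arrays were all higher. The difference was 0.51 for deleted (SE 0.10, limma adjusted p = 0.0113) and 0.48 for floxed leukemias (SE 0.10, limma adjusted p = 0.0214). Only the probe set that represented Ssr1 passed of its 4, and the mean of the 4 did not (limma adjusted p = 0.61 and 0.514). Sec61a1 and Sec61b, subunits of the channel, differed by -0.05 and -0.09 in deleted and by -0.14 and -0.23 in floxed leukemias. The mean of the 6 Sec61a1 probe sets was lower in floxed leukemias, by 0.41 (limma adjusted p = 0.0332). It was the 1 of 14 alternative settings in which Sec61a1 passed there.

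Many calls against Hoxa9-Meis1 leukemias were lost when 1 array was left out. Without Hoxa9-Meis1 replicate 1, 3 of the 7 calls of lower level held in floxed leukemias and 1 of 7, Ern1, in deleted leukemias. All genes called lower also fell in number, to 647 in the deleted comparison, against 1134 with all arrays, and to 248 in the floxed comparison, against 603. The difference of Hspa5 without that array was -0.48 in deleted (limma adjusted p = 0.0509) and that of Dnajb9 was -1.16 (0.0672). Without deleted replicate 5, deleted replicate 6 or Hoxa9-Meis1 replicate 2, 4 of the 7 genes lower in deleted leukemias held. All genes called lower numbered 792, 860 and 698 in these fits, against 1134 with all arrays. The groups were apart, with all MLL-AF9 arrays lower, for 13 of 31 genes in the deleted comparison, where 13.2% of all genes were, and for 15 in the floxed comparison, where 12.1% were. They were apart in the other direction for 5 and 2 genes, where 21.7% and 15.4% of all genes were.

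Further genes of the same pathways were taken from lists of related ER functions. Over all genes, 3.22% were called higher and 3.63% lower in deleted relative to floxed leukemias, 9.27% and 6.23% in deleted relative to Hoxa9-Meis1 leukemias, and 5.58% and 3.31% in floxed relative to Hoxa9-Meis1 leukemias. Of 30 further folding genes, 4 fell (13.3%) and 0 rose in deleted relative to floxed leukemias (median difference -0.10, beside 0.06 over all genes). They were Txndc5, a disulfide isomerase (-1.78), Dnajc10, a disulfide reductase (-1.33), Fkbp7, a prolyl isomerase (-2.16), and Erp29, an ER-resident relative of the disulfide isomerases (-0.64). Against Hoxa9-Meis1 leukemias 6 fell (20%) and 1 rose (3.33%) in deleted leukemias, with Dnajc10 at -2.0, Txndc5 at -1.52, Erp29 at -0.76 and the glycoprotein glucosyltransferase relative Uggt2 at -0.70. In floxed leukemias 2 fell and 2 rose (6.67% each), with Txndc11 at -0.93, Uggt2 at -0.59, Fkbp11 at 1.56 and Tmx1 at 0.43.

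Of 27 further degradation genes, 1 rose and 1 fell (3.7% each, near the share over all genes) in deleted relative to floxed leukemias: the ubiquitin-conjugating enzyme gene Ube2g2 (0.54) and the mannosidase gene Man1b1 (-1.15). Edem3, a relative of Edem2, fell against Hoxa9-Meis1 leukemias by 1.14 in deleted and by 1.29 in floxed leukemias. Against the same leukemias Rnf5 (0.74) and Ube2g2 (0.41) rose in deleted leukemias, and Man1b1 (1.20), Trim13 (0.85) and Erlin1 (0.87) rose in floxed leukemias. Of 19 translocation and signal peptidase genes, Sec61a2 fell in deleted relative to floxed leukemias (-0.69). Srp72, a subunit of the signal recognition particle, fell against Hoxa9-Meis1 leukemias in deleted (-0.59) and floxed leukemias (-0.53), and Spcs1 rose in deleted leukemias (0.68). Of 11 oligosaccharyltransferase genes, which attach sugar chains, Ostc and Dad1 fell in floxed relative to Hoxa9-Meis1 leukemias (-0.59 each). With limma 0 of the 11 passed in the other 2 comparisons, where 2 genes each had an unadjusted p under 0.05.

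The Perk and Atf4 arm, which answers ER stress and amino acid shortage, moved in both directions. Of 18 genes, 3 rose (16.7%, against 3.22% of all genes) and 1 fell (5.56%, against 3.63%) in deleted relative to floxed leukemias (median 0.35). Asns, for asparagine synthetase, rose by 1.58, the glutathione-degrading gene Chac1 by 1.08 and the adaptor gene Nck1 by 0.73, while the serine synthesis gene Psat1 fell by 0.81. Against Hoxa9-Meis1 leukemias 4 rose and 4 fell in deleted leukemias (22.2% each, against 9.27% and 6.23% of all genes), with Atf3 at -4.71, Asns at 2.72, Chac1 at 1.54 and Ddit3, the gene of the transcription factor Chop, at -1.18. In floxed leukemias 1 rose (5.56%, against 5.58% of all genes) and 4 fell (22.2%, against 3.31%), with Atf3 at -5.49, Ppp1r15a at -3.15, Ddit3 at -1.48 and Asns at 1.15. Among 17 partners of Atf6 and Ire1, Creb3l2, an ER-anchored transcription factor gene, fell against Hoxa9-Meis1 leukemias in deleted (-2.38) and floxed leukemias (-2.0), and its relative Creb3l3 rose in deleted leukemias (0.84). In deleted relative to floxed leukemias 0 of the 17 passed with limma, and 3 had an unadjusted p under 0.05.

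**Figure D5:**
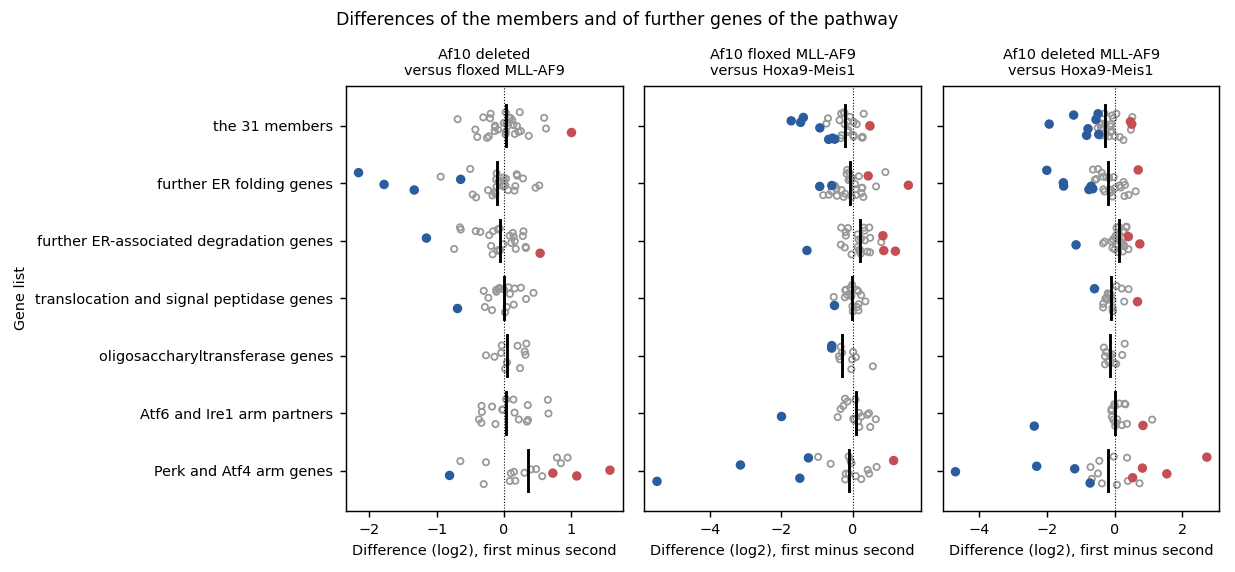
Points are the log2 differences of single genes in the set of 31 and in 6 further lists, and the line in each row is the list's median. Atf3 lies farthest to the left in both comparisons with Hoxa9-Meis1 leukemias, and Asns is to the right of 0 in all 3 panels.

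Markers of other cell types moved with some of these comparisons, and their part in the results was not tested. Of 10 plasma cell markers 9 were measured, with a summed intensity of 4460 to 5658 in deleted, 3895 to 5678 in floxed and 1989 to 2614 in Hoxa9-Meis1 leukemias. In deleted relative to Hoxa9-Meis1 leukemias 4 rose (44.4%, against 9.27% of all genes) and 1 fell (11.1%, against 6.23%). In floxed relative to Hoxa9-Meis1 leukemias 3 rose (33.3%, against 5.58%), and in deleted relative to floxed leukemias 1 fell (11.1%, against 3.63%). Jchain was at 11.50 ± 0.25 in deleted, 10.20 ± 0.99 in floxed and 7.69 ± 0.49 in Hoxa9-Meis1 leukemias, and Pou2af1 was at 8.18, 6.45 and, within the background range, 4.06. Relative to Hoxa9-Meis1 leukemias, Ssr1 was higher and the 6 shared genes were lower in the groups with the higher marker sum. Between deleted and floxed leukemias, Xbp1 averaged 11.44 against 10.44. Of the 9 plasma cell markers, 7 differed in the same direction and 2 in the other, with a median difference of 0.06, as over all genes. Jchain and Pou2af1 were among the 7 and did not pass, the 1 marker called was lower, and the summed intensities overlapped.

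Of T and NK cell markers 9 of 10 were measured. In deleted relative to floxed leukemias 4 were higher (44.4%, against 3.22% of all genes) and 1 lower (11.1%, against 3.63%). Relative to Hoxa9-Meis1 leukemias 4 were higher in deleted leukemias (44.4%, against 9.27%). In floxed relative to Hoxa9-Meis1 leukemias 1 was higher and 1 lower (11.1% each, against 5.58% and 3.31%). Cd3e was at 7.77 in deleted, 6.84 in floxed and 6.75 in Hoxa9-Meis1 leukemias on average, while the summed intensity overlapped, at 1486 to 3675 in deleted, 2275 to 4908 in floxed and 2206 to 4770 in Hoxa9-Meis1 leukemias. Of 9 B cell markers measured, Cd79b and Il7r were lower in deleted than in floxed leukemias (22.2%, against 3.63% of all genes). Relative to Hoxa9-Meis1 leukemias, 2 were higher in each MLL-AF9 group (22.2% each, against 9.27% for deleted and 5.58% for floxed leukemias). The sum of the 9 was 1707 to 1810 in deleted, 2643 to 3892 in floxed and 1330 to 2637 in Hoxa9-Meis1 leukemias. The 6 leukocyte and myeloid markers summed to 22484 to 23295 in deleted, 13554 to 17008 in floxed and 13482 to 18606 in Hoxa9-Meis1 leukemias. Fcgr3 was the 1 called higher in deleted relative to floxed leukemias (16.7%, against 3.22%). Relative to Hoxa9-Meis1 leukemias 2 were higher in deleted leukemias (33.3%, against 9.27%). In floxed leukemias 1 was higher and 1 lower (16.7% each, against 5.58% and 3.31%). The 11 late neutrophil genes measured had a sum of 100034 to 125117 in deleted, 63998 to 110178 in floxed and 73644 to 100120 in Hoxa9-Meis1 leukemias. Cxcr2 was the 1 called higher in deleted relative to floxed leukemias (9.09%, against 3.22%). Relative to Hoxa9-Meis1 leukemias 2 were higher in deleted (18.2%, against 9.27%) and 1 was lower in floxed leukemias (9.09%, against 3.31%).

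Stromal and endothelial markers went in both directions. All 10 were measured, and their sum was 2052 to 2960 in deleted, 2362 to 3284 in floxed and 4482 to 5864 in Hoxa9-Meis1 leukemias. In deleted relative to Hoxa9-Meis1 leukemias 5 differences were positive and 5 negative (median 0.03). Pecam1 and Vcam1 were called lower (20%, against 6.23% of all genes) and Cdh5 higher (10%, against 9.27%). In floxed relative to Hoxa9-Meis1 leukemias Vcam1 was the 1 called, lower with a difference of -2.20 (10%, against 3.31%). In deleted relative to floxed leukemias 1 of the 10 was called, also lower (10%, against 3.63%). The sum of 11 monocyte and macrophage genes was 13130 to 21599 in deleted, 20506 to 29001 in floxed and 23643 to 43326 in Hoxa9-Meis1 leukemias. In deleted relative to floxed leukemias 2 were lower (18.2%, against 3.63% of all genes) and 1 higher (9.09%, against 3.22%), with a median of -0.85. Relative to Hoxa9-Meis1 leukemias, 1 was higher and 1 lower in deleted leukemias (9.09% each, against 9.27% and 6.23%). In floxed leukemias 1 was lower (9.09%, against 3.31%). The 8 primary granule genes measured, which encode cargo folded in the ER, summed to 79416 to 92244 in deleted, 63077 to 83679 in floxed and 82044 to 96801 in Hoxa9-Meis1 leukemias. With limma 0 of these 8 passed in any comparison. An unadjusted p under 0.05 was seen for 1 of them in deleted relative to floxed leukemias, for 2 in deleted and for 3 in floxed relative to Hoxa9-Meis1 leukemias. Of 10 erythroid markers 7 were measured, with 1 lower in deleted relative to floxed leukemias (14.3%, against 3.63% of all genes). Relative to Hoxa9-Meis1 leukemias 1 was higher in deleted and 1 in floxed leukemias (14.3% each, against 9.27% and 5.58%).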

How the data were processed

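Total RNA of 9 samples was hybridised to one-colour Affymetrix mouse arrays, 1 per sample. The authors deposited intensities of 45101 probe sets on each array. The authors made them with RMA, per the submitters' processing notes, and its version is not given in the sources used here. The deposited intensities run from 4.60 to 32082 on a linear scale, so log2(value + 1) was taken, which slightly understates changes of dim genes. Arrays have no read depth, and their number limits the precision.

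Genes were named through the platform annotation (1 symbol for 34958 probe sets) and RefSeq. The probe set with the highest mean over 9 arrays represented each of 18194 genes. A group-means model over all 9 arrays was fitted with limma 3.58.1 in R 4.3.3 (lmFit and eBayes, two-sided, Benjamini-Hochberg over all genes, threshold 0.05), after tests on simulated data. Groups came from the labels, and no batch was given. The numbers 4, 5 and 6 of the MLL-AF9 arrays are those of the labels, which do not say whether they pair samples. Correlations of deviations from group means were 0.03, 0.05 and 0.01 for deleted and floxed arrays of equal number. For unequal numbers they ran from -0.127 to 0.08. Deviations from means of so few arrays cannot decide whether the numbers pair samples, and the main model treated them as unpaired. Hoxa9-Meis1 arrays were numbered in accession order. Alternatives changed the samples fitted, pseudocount, dim-gene filter, normalization, probe set choice, weights and trend, added a replicate block, or left out arrays.

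The 31 genes and the further lists were chosen with earlier results of these data known, so counts over them are descriptions. Genes called in any comparison, with Hspa5, Hsp90b1, Xbp1, Ern1, Atf6 and Eif2ak3, were given per array, and in each further list up to 4 called genes per comparison with the smallest adjusted p were named. Listed genes that matched no measured gene were not analysed here.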

Additional observations from a re-analysis of the deposited data

How the results depend on the processing

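No difference that passed the threshold in any setting changed sign in another. With 1 array left out at a time, the deleted versus floxed comparison had 0 to 2 genes higher and 0 to 1 lower, with a median of 0.0092 to 0.079. The floxed versus Hoxa9-Meis1 comparison had 0 to 1 higher and 3 to 8 lower (median -0.24 to -0.15), and the deleted versus Hoxa9-Meis1 comparison had 0 to 1 higher and 1 to 7 lower (median -0.25 to -0.14). Over all genes, 284 to 588 were then higher and 361 to 616 lower in deleted versus floxed leukemias. Against Hoxa9-Meis1 leukemias, 433 to 1141 were higher and 248 to 658 lower in floxed leukemias. In deleted leukemias these counts were 893 to 1627 and 647 to 1083. In deleted versus floxed leukemias, 0 genes were higher with only the 2 groups compared, with a block for replicate number, and when deleted replicate 6 and floxed replicate 5 were both left out; the mean of probe sets gave 1 gene lower, Derl1. The block was added to the fit with only the 2 groups. Over all genes that fit called 385 higher and 450 lower, and 249 and 350 with the block. With all 9 arrays and no block the calls were 585 and 661. Xbp1 was not called in the 2-group fit, with or without the block. In floxed versus Hoxa9-Meis1 leukemias, 0 genes were higher with only the 2 groups compared, with the mean of probe sets and without the same 2 arrays, and the median was -0.15 without those arrays and -0.15 with array weights. In deleted versus Hoxa9-Meis1 leukemias, 11 genes were lower with array weights, where the genes called lower over all genes also rose, to 1572 from 1134. The median was -0.36 after quantile normalization, -0.22 with the mean of probe sets, -0.20 with array weights and -0.14 without the 2 arrays. Of genes of the set past the threshold in no setting, the difference changed sign in some setting for 11 of 26 in deleted relative to floxed leukemias, and relative to Hoxa9-Meis1 leukemias for 3 of 15 in deleted and 7 of 19 in floxed leukemias. In deleted relative to floxed leukemias, the mean of probe sets turned Canx to 0.0597, Pdia6 to -0.1093, Ssr1 to -0.0339, Herpud1 to 0.0028 and Derl2 to -0.1748. Array weights turned Hyou1 to -0.0084, Sdf2l1 to -0.0601 and Herpud1 to 0.0158. Leaving out both arrays turned Hsp90b1 to 0.0249, Hyou1 to -0.0824, Sdf2l1 to -0.012, Manf to 0.004, Canx to 0.1376, Pdia4 to 0.0765 and Eif2ak3 to 0.002. With 1 array left out, Sdf2l1 ran from -0.1607 to 0.1925, Derl2 from -0.1193 to 0.1488, Hyou1 from -0.045 to 0.1435, Herpud1 from -0.1327 to 0.1878, Canx from -0.2263 to 0.0144, Pdia4 from -0.3378 to 0.0409 and Ssr1 from -0.021 to 0.0733. In floxed relative to Hoxa9-Meis1 leukemias, quantile normalization turned Dnajb11 to -0.0315, Creld2 to -0.0545 and Canx to -0.0534, the mean of probe sets turned Hsp90b1 to -0.0911, Eif2ak3 to -0.0788 and Edem1 to 0.0758, and array weights turned Hsp90b1 to -0.0287 and Canx to -0.0628. Leaving out both arrays turned Hsp90b1 to -0.0994, Dnajb11 to -0.019, Creld2 to -0.0241 and Canx to -0.1284. With 1 array left out, Sel1l ran from -0.1056 to 0.4232, Hsp90b1 from -0.0994 to 0.1689, Dnajb11 from -0.019 to 0.0908, Creld2 from -0.0341 to 0.1237 and Canx from -0.1284 to 0.1094. In deleted relative to Hoxa9-Meis1 leukemias, Os9 turned to -0.0384 after quantile normalization and -0.0382 with the mean of probe sets, which also turned Canx to 0.1657 and Eif2ak3 to -0.1183, and Canx was 0.0092 without both arrays. With 1 array left out, Eif2ak3 ran from -0.1537 to 0.2008 and Canx from -0.2062 to 0.0092. The cause of these changes was not tested, except that fits on fewer arrays have less power by construction.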
